A study of Rattus norvegicus with 9 samples.

Results

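The 10 genes described here make, conjugate, transport and sense bile acids in the liver. Their names were taken from the 17156 gene symbols of 2 deposited gene tables, which together covered 9 rat livers. They were the hydroxylases Cyp7a1, Cyp8b1, Cyp27a1 and Cyp7b1, the conjugating enzymes Slc27a5 and Baat, the transporters Slc10a1 and Abcb11, and the nuclear receptors Nr1h4 and Nr0b2. All 10 were found in both deposited gene tables and passed the filter on low counts in every comparison. RNA sequencing had been done on 3 livers of the normal control group, 3 of the model group and 3 of the group given tormentic acid (TA), a plant triterpenoid. The animals were male Sprague-Dawley rats. Liver fibrosis was induced in the model and TA groups with CCl4, a hepatotoxic solvent, given by gavage at 2 ml/kg as a 50% solution in oil, 2 times a week for 9 weeks, while normal rats received saline. The TA group was then given TA at 3 mg/kg for 6 weeks. What the model group received over those weeks, and the hour of day at which livers were taken, were not given in the sources used here; the rats had been fasted for 12 h. The sample labels describe both CCl4 groups as hepatitis stage liver. They do not state that each library came from a different rat, so p-values measure the spread between these libraries.

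Bile acids are made in hepatocytes from cholesterol. In the main route Cyp7a1 takes the first step and limits the rate, and Cyp8b1 decides how much cholic acid is formed. In the alternative route Cyp27a1 oxidises the side chain first and Cyp7b1 acts on the product. Slc27a5 then activates bile acids with coenzyme A and Baat joins them to taurine or glycine. Slc10a1 (NTCP) takes conjugated bile acids up from the blood, and Abcb11 (BSEP) pumps them into bile. Nr1h4 (FXR) is the receptor that bile acids activate, and Nr0b2 (SHP) is the corepressor that FXR induces and that holds Cyp7a1 and Cyp8b1 down.

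Promoters are printed for 3 of these genes: Cyp8b1 and Cyp27a1, which passed the thresholds in both comparisons with the model group, and Nr0b2, which the bile acid receptor induces. The RefSeq promoter table for the rat assembly GRCr8 matched 6 of the 10 genes, namely these 3 with Slc27a5, Baat and Slc10a1. Each run is the 250 bases before the annotated start, 5′ to 3′ on the gene's strand, with motif matches in capitals. The windows lie at chr8:130457593-130457842 on the minus strand for Cyp8b1, chr9:83713282-83713531 on the plus strand for Cyp27a1 and chr5:151062910-151063159 on the plus strand for Nr0b2.
Cyp8b1: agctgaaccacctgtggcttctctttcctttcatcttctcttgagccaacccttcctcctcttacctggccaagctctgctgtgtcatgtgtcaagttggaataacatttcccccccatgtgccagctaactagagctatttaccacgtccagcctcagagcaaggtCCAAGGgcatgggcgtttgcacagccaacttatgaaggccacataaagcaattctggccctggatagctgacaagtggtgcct
Cyp27a1: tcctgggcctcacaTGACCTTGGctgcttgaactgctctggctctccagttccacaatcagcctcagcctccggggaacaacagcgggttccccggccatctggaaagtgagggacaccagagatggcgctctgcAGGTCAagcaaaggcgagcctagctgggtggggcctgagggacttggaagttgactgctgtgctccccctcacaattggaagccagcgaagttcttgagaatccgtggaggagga
Nr0b2: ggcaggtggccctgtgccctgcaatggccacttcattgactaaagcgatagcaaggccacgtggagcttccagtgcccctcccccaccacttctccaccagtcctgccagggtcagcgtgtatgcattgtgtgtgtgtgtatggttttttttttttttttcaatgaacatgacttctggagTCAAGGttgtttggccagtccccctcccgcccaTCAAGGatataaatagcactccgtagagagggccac

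The motifs were searched on both strands and were chosen after the expression values had been seen. The inverted repeat that FXR binds with its partner RXR, searched as AGGTCANTGACCT, was found in 0 of the 6 promoters and in 0.0269% of the 33469 rat promoters of this length. The direct repeat AGGTCANAGGTCA was also found in 0 of the 6, against 0.0508% of all promoters. The receptor core AGGTCA alone was found in 2 of the 6, Cyp27a1 and Slc10a1, each with 2 matches, against 14.1% of all promoters. The core motif of LRH-1, the orphan receptor through which Nr0b2 acts, was searched in the forms TCAAGG and CCAAGG. The first of these occurred only in the Nr0b2 promoter among the 6, starting 69 and 36 bases upstream, against 12.6% of all promoters. The form CCAAGG occurred in Cyp8b1, 83 bases upstream, and on the opposite strand in Cyp27a1, where it overlapped a match of AGGTCA; 18% of all promoters held it. These letter matches describe the windows and do not show binding.

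Total counts ran from 13156735 to 18090405 per library. Levels below are CPM (library-size-scaled counts) adjusted by the trimmed mean of M-values (TMM) over the 9 livers. One library stood apart. Model liver 1 had 43392 CPM over 12 hepatocyte marker genes such as albumin, against 123793 and 142043 in the other model livers, 165844 to 205897 in normal livers and 140420 to 221398 in TA livers. Markers of stellate cells and fibroblasts (7 of 8 listed genes present) summed to 12178 CPM in that liver, against 1132 and 1442 in the other model livers, 198 to 287 in normal livers and 650.3 to 1152 in TA livers. The 7 cholangiocyte markers summed to 1985 CPM there, against 152 and 237 in the other model livers, 37.7 to 61.9 in normal and 61.7 to 75.4 in TA livers. That difference rested on Spp1, at 1817 CPM in model liver 1, since the other 6 cholangiocyte markers summed to 167, 192 and 125 CPM in model livers 1, 2 and 3. Pancreas and intestine markers stayed between 1.53 and 8.20 CPM in every liver. In bulk tissue, fewer hepatocytes and less RNA per hepatocyte cannot be told apart. Some medians and values below are therefore also given without that library or with hepatocyte marker counts as the library size.

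The 10 genes together held 6641, 6012 and 6835 CPM in the normal livers, 577, 1962 and 4039 CPM in the model livers and 5907, 4568 and 5607 CPM in the TA livers. The model values were all below those of both other groups, and model liver 3 came nearest to them. Within the model group, 8 of the 10 genes were lowest in liver 1 and 8 were highest in liver 3, the exceptions being Cyp7a1 and Cyp7b1. In the other groups no liver was lowest or highest for more than 5 genes.

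**Figure D1:**
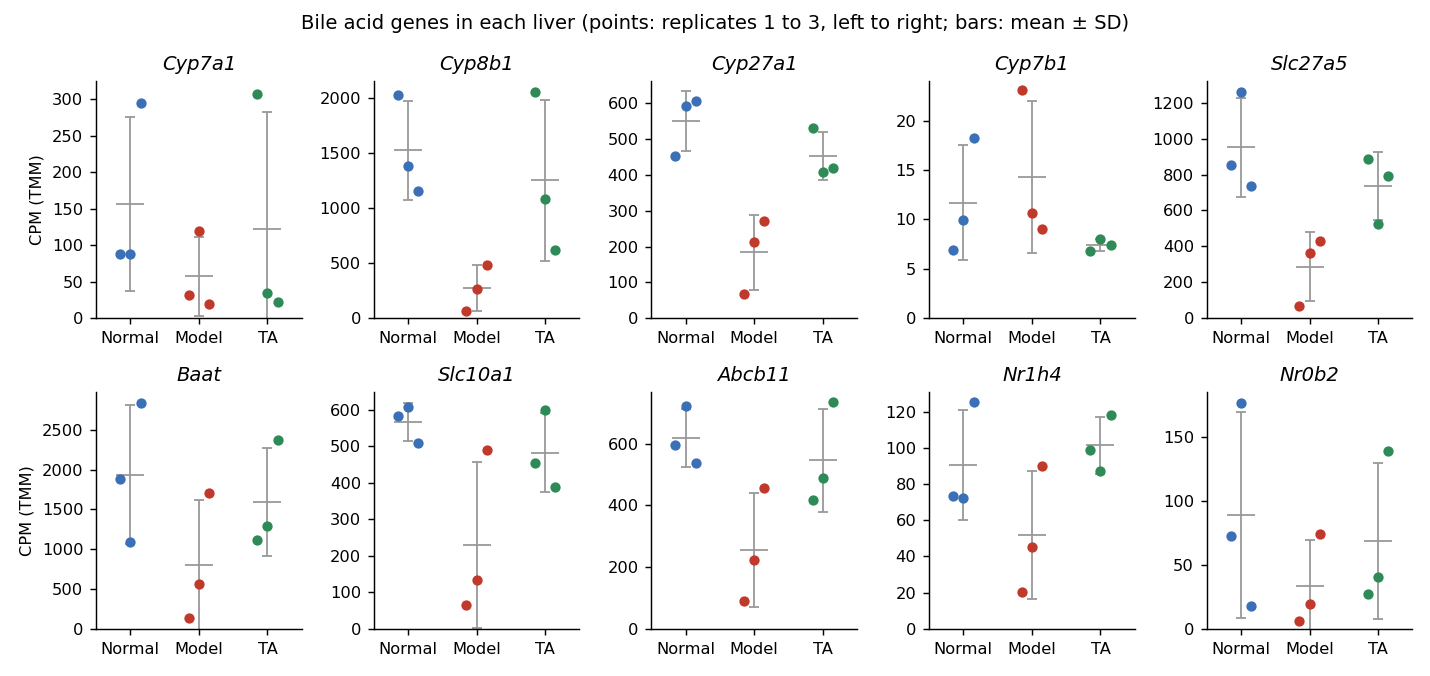
Level of each of the 10 bile acid genes in each liver, in CPM scaled by TMM, by group; points are livers, replicates 1 to 3 from left to right, and bars are the mean and SD of 3 livers, cut at 0. Cyp8b1, Cyp27a1 and Slc27a5 in the model livers lie below every normal and TA liver, whereas Cyp7a1 and Nr0b2 spread widely within each group.

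Levels can be compared between genes only per length, for which the deposited FPKM values were used. In normal livers Baat was the most abundant of the 10 at 946 ± 408 FPKM (SD, n = 3), followed by Cyp8b1 at 649 ± 196, Slc27a5 at 345 ± 107, Slc10a1 at 285 ± 31.8, Cyp27a1 at 202 ± 30.7 and Abcb11 at 103 ± 18.1. Nr0b2 at 67.9 ± 62.0, Cyp7a1 at 36.6 ± 27.2 and Nr1h4 at 30.6 ± 9.66 FPKM came next, and Cyp7b1 was lowest at 3.44 ± 1.65. Only 4 of the 9 neighbouring pairs in this order did not overlap between livers, and these were Cyp8b1 over Slc27a5, Slc10a1 over Cyp27a1, Cyp27a1 over Abcb11 and Nr1h4 over Cyp7b1. In the model group the livers of every neighbouring pair overlapped. In the TA group 2 neighbouring pairs did not overlap, Cyp27a1 over Abcb11 and Cyp7a1 over Cyp7b1.

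**Figure D2:**
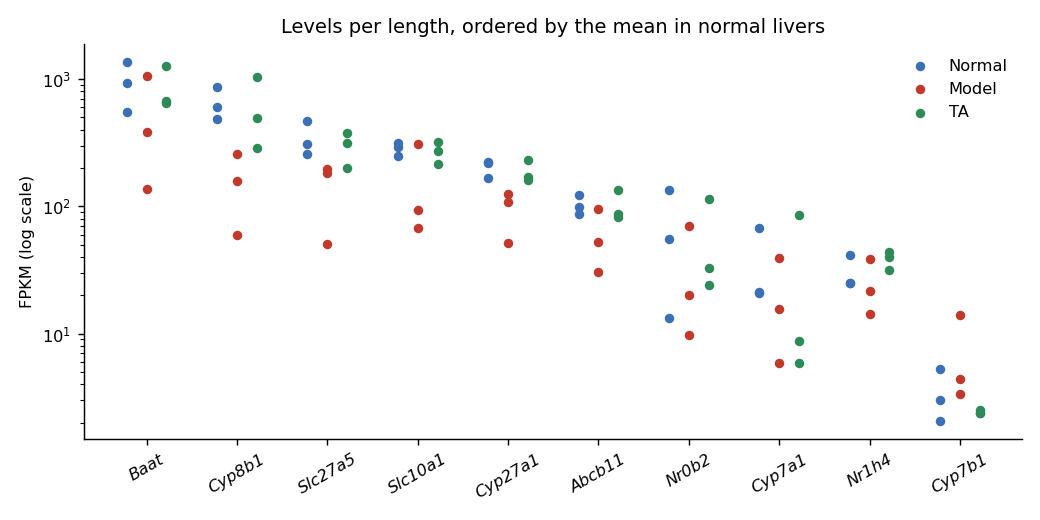
FPKM of the 10 genes on a log axis for each of the 3 groups, with 1 point per liver; genes are ordered by their mean in normal livers. Baat is at the top with 946 FPKM and Cyp7b1 at the bottom with 3.44 FPKM in normal livers, and the order between most neighbours is within the spread of the livers.

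The comparison Model VS Normal asks how the bile acid genes stood in CCl4 fibrosis. Of the 10 genes, 3 were lower in the model livers at the thresholds of the study's methods, which ask for an unadjusted p below 0.05 and at least a log2 fold change of 1 in size, and 0 were higher. These were Cyp8b1, Cyp27a1 and Slc27a5. The same thresholds called 5.55% of the 12730 genes tested lower and 16.6% higher. No member passed an adjusted p of 0.05 in edgeR's quasi-likelihood test, which called 7.87% of all genes in either direction. At an unadjusted p below 0.05 the count was 3 (28.9% of all genes). DESeq2 called the same 3 after adjustment, and limma voom with sample weights called 5. Both also called more of all genes than edgeR did, as given in the closing section. The median log2 fold change of the 10 genes was -1.35, against 0.02 over all genes tested, and 9 of the 10 values were below 0. The 12 hepatocyte markers moved alike, with a median of -1.18 and 12 of 12 values below 0. Of the 5 genes whose model and normal livers did not overlap, all lower (17.3% of all genes were), Slc10a1 and Abcb11 did overlap on FPKM and per hepatocyte marker count.

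Cyp8b1, which commits the main route to cholic acid, was measured at 2034, 1388 and 1159 CPM in normal livers and at 68.0, 266 and 487 CPM in model livers. Every model liver was below every normal liver, and the lowest was liver 1. Its level was 5.52-fold lower in the model group (log2 fold change -2.46, SE 0.71), with an unadjusted p of 0.00856 and an adjusted p of 0.0706 in edgeR. It stayed past the study's thresholds in 6 of 6 fits that each left out a library, at log2 fold changes from -3.19 to -2.03. With hepatocyte marker counts as the library size it was -1.73, with an adjusted p of 0.0178 in edgeR. Cyp8b1 was the only one of the 10 genes to pass after adjustment on that scale. There the median of all genes was 1.25. More of all genes passed than in the main fit, as given in the closing section.

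Cyp27a1, the mitochondrial hydroxylase that starts the alternative route, was at 453, 591 and 605 CPM in normal livers and at 68.7, 212 and 272 CPM in model livers. The groups did not overlap. It was 2.96-fold lower (log2 fold change -1.56, SE 0.52; edgeR unadjusted p = 0.0162, adjusted p = 0.0973), and it was called in 6 of 6 fits leaving out a library, at -1.97 to -1.20. The call was lost on the hepatocyte marker scale, where the log2 fold change was -0.75 with an unadjusted p of 0.146 in edgeR.

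Slc27a5, the bile acid CoA ligase, was at 856, 1261 and 735 CPM in normal livers and at 67.9, 364 and 430 CPM in model livers, again without overlap. The level was 3.27-fold lower (log2 fold change -1.71, SE 0.66; edgeR unadjusted p = 0.0329, adjusted p = 0.137). This call was kept in only 2 of 6 fits leaving out a library. Without model liver 1 the log2 fold change was -1.27 (edgeR unadjusted p = 0.00587) and without model liver 3 it was -2.14. Without normal liver 1, 2 or 3 or model liver 2 the unadjusted p in edgeR was 0.057, 0.0981, 0.0527 and 0.0534. Scaled to hepatocyte markers it was -0.97, with an unadjusted p of 0.0625 in edgeR.

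The other 2 genes without overlap in CPM were the transporters. Abcb11 was at 596, 723 and 536 CPM in normal livers and at 89.0, 225 and 455 CPM in model livers (log2 fold change -1.26, SE 0.57; edgeR unadjusted p = 0.0583, adjusted p = 0.188). Slc10a1 was at 583, 608 and 508 CPM in normal livers and at 65.1, 134 and 490 CPM in model livers (log2 fold change -1.29, SE 0.68; edgeR unadjusted p = 0.0959, adjusted p = 0.248). For both transporters model liver 3 came close to the lowest normal liver, and neither gene passed the thresholds. Without model liver 1 the log2 fold changes were -0.88 for Abcb11 and -0.87 for Slc10a1.

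The remaining 5 genes overlapped between the groups. Baat was at 1879, 1095 and 2835 CPM in normal livers and at 136, 565 and 1711 CPM in model livers, a log2 fold change of -1.26 with an SE of 0.86, which was -0.77 without model liver 1. Cyp7a1 was at 87.9, 87.4 and 294.7 CPM in normal livers and at 32.2, 119.8 and 19.8 CPM in model livers (log2 fold change -1.44, SE 0.76). Its highest model liver was above 2 of the 3 normal livers. The value moved between -2.57 without model liver 2, where it passed the thresholds (edgeR unadjusted p = 0.00621), and -0.62 without normal liver 3.

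Neither receptor gene passed the thresholds. Nr1h4 was at 73.3, 72.3 and 125.5 CPM in normal livers and at 20.3, 45.2 and 90.2 CPM in model livers (log2 fold change -0.79, SE 0.51), and on the hepatocyte marker scale its log2 fold change was -0.00. Nr0b2 was at 72.8, 176 and 18.1 CPM in normal livers and at 6.31, 19.2 and 74.3 CPM in model livers (log2 fold change -1.41, SE 0.97). The highest Nr0b2 value was 9.70-fold above the lowest among normal livers and 11.8-fold among model livers.

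Cyp7b1, the second enzyme of the alternative route, was the only one of the 10 with a positive value. It was at 6.95, 9.96 and 18.2 CPM in normal livers and at 23.2, 10.7 and 9.06 CPM in model livers, with its highest value in model liver 1, where 8 of the other genes were lowest. The log2 fold change of 0.32 (SE 0.48) became -0.25 without that library and 1.82 on the hepatocyte marker scale, where the unadjusted p in edgeR was 0.0395. The median log2 fold change of the 10 genes was -0.92 without model liver 1. It was -0.62 on the hepatocyte marker scale, where the median was 1.25 over all genes and -0.34 over the hepatocyte markers. How far cell composition enters these differences was not tested.

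**Figure D3:**
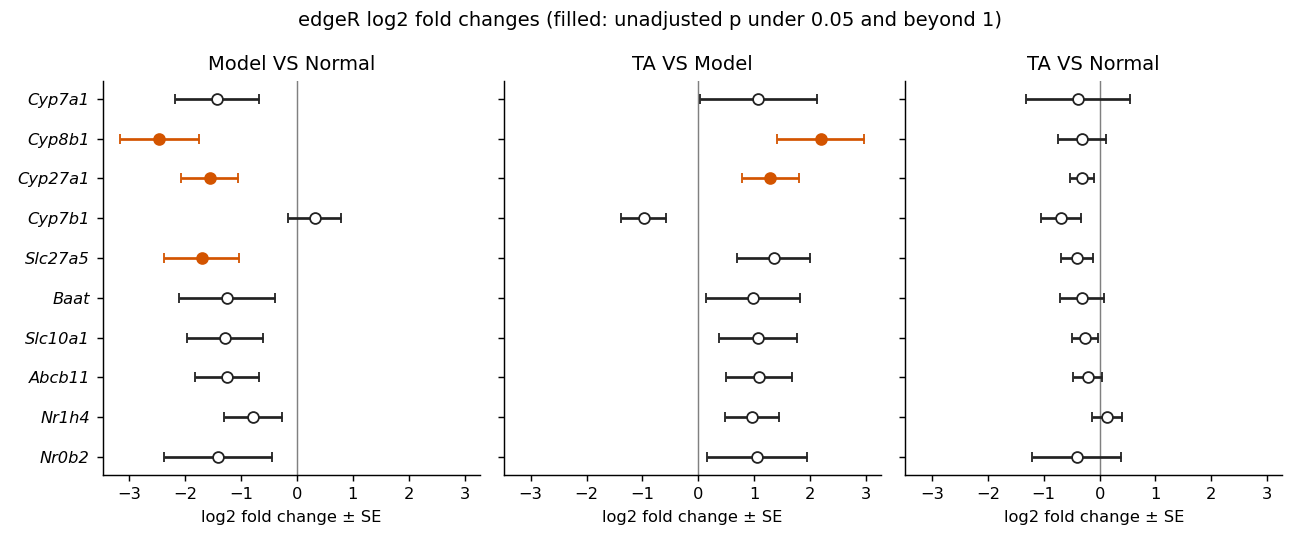
Log2 fold change of the 10 genes in Model VS Normal, TA VS Model and TA VS Normal from edgeR, with bars of 1 SE; filled points passed the study's thresholds. Only Cyp8b1 and Cyp27a1 passed in both comparisons with the model group, and no gene passed in TA VS Normal.

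The comparison TA VS Model asks how the same genes stood after TA treatment of fibrotic rats. It shares the 3 model libraries with Model VS Normal, so a low model liver enters both with opposite signs. Cyp8b1 and Cyp27a1 were higher in the TA livers at the study's thresholds, 2 of 10 genes against 2.11% of the 12781 genes tested, and 0 were lower, against 10.2%. After adjustment edgeR called 0 of the 10 genes and 0% of all genes. The unadjusted count was 3 of 10 (Cyp8b1, Cyp27a1 and Cyp7b1) and 15.6% of all genes. DESeq2 called 1 of the 10 after adjustment, Cyp8b1, and limma voom called 0. Both called more of all genes than edgeR did, as given in the closing section. The median log2 fold change was 1.07, against -0.00 over all genes and 0.82 over the 12 hepatocyte markers, with 9 of 10 values above 0. In CPM, 3 genes did not overlap upward (Cyp8b1, Cyp27a1 and Slc27a5; 10.5% of all genes) and 1 downward (Cyp7b1; 12.6% of all genes).

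Cyp8b1 was measured at 2059, 1087 and 617 CPM in TA livers against 68.0, 266 and 487 CPM in model livers. All TA livers were above all model livers, although the lowest TA liver was near model liver 3. The level was 4.56-fold higher with TA (log2 fold change 2.19, SE 0.78; edgeR unadjusted p = 0.0230, adjusted p = 0.276). It was called in 4 of 6 fits leaving out a library, at 1.64 to 2.90. Without TA liver 1 it was 1.64 with an unadjusted p of 0.0823 in edgeR, and without model liver 2 the unadjusted p was 0.0658. On the hepatocyte marker scale it was 1.74, with an adjusted p of 0.0583 in edgeR.

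Cyp27a1 was at 530, 409 and 419 CPM in TA livers against 68.7, 212 and 272 CPM in model livers, without overlap. It was 2.45-fold higher (log2 fold change 1.29, SE 0.51; edgeR unadjusted p = 0.0364, adjusted p = 0.299). The call was kept in only 1 of 6 fits leaving out a library, that without model liver 3 at 1.69. Without model liver 1 the log2 fold change was 0.91 with an unadjusted p of 0.0173 in edgeR, short of the fold threshold. Without model liver 2 the unadjusted p in edgeR was 0.0702, and without TA liver 1, 2 or 3 it was 0.0983, 0.0653 and 0.0681. Scaled to hepatocyte markers it was 0.71, with an unadjusted p of 0.245.

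Slc27a5 stood at 886, 523 and 794 CPM in TA livers, all above the model livers, with a log2 fold change of 1.35 (SE 0.66; edgeR unadjusted p = 0.0752, adjusted p = 0.353). On the hepatocyte marker scale the groups overlapped for Slc27a5 and Cyp27a1, and Cyp8b1 was the only gene of the 10 still separate upward. Cyp7b1 was at 6.80, 7.98 and 7.39 CPM in TA livers, each below its lowest model liver at 9.06 CPM. Its log2 fold change was -0.98 (SE 0.40; edgeR unadjusted p = 0.0405, adjusted p = 0.306), just inside the fold threshold, and it was -0.42 without model liver 1. On the hepatocyte marker scale it was -2.33, with an unadjusted p of 0.0068 in edgeR, and the median of all genes there was -1.01. The counts behind Cyp7b1 were 94 to 99 reads per TA library and 128 to 525 per model library.

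The transporters Abcb11 and Slc10a1 had log2 fold changes of 1.09 (SE 0.59) and 1.06 (SE 0.70), and neither passed. Abcb11 was at 417, 489 and 735 CPM in TA livers and Slc10a1 at 455, 600.3 and 389 CPM, and each had at least 1 TA liver below model liver 3. Baat was at 1119, 1288 and 2366 CPM (log2 fold change 0.98, SE 0.85), and Nr1h4 at 98.9, 87.1 and 118 CPM (0.96, SE 0.49). For these 4 genes model liver 3 lay among the TA livers. Without that library, 9 of the 10 genes passed the study's thresholds in TA VS Model and 8 in Model VS Normal. Without TA liver 1 none did in TA VS Model. The shares of all genes called in those fits are not given here, so these counts are not read as particular to the 10 genes. Without model liver 1 the median log2 fold change of the 10 genes was 0.66. On the hepatocyte marker scale it was 0.58, where the median of all genes was -1.01.

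**Figure D4:**
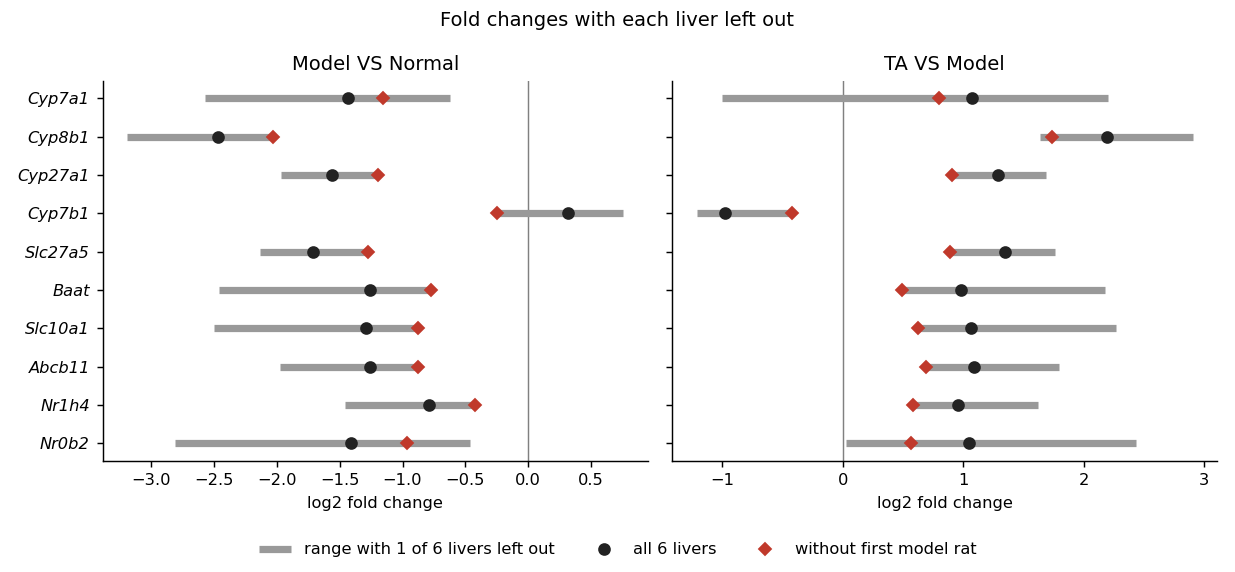
Log2 fold change of each of the 10 genes with all 6 libraries (circles), its range when each library was left out in turn (bars) and its value without model liver 1 (diamonds), for Model VS Normal and TA VS Model. Cyp8b1 stays between -3.19 and -2.03 in the first comparison and between 1.64 and 2.90 in the second, while Cyp7a1 crosses 0 in the second when TA liver 1 is left out.

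In TA VS Normal, which sets the treated livers beside livers never exposed to CCl4, 0 of the 10 genes passed either rule in edgeR, and 0 had an unadjusted p below 0.05, against 9.43% of all genes. DESeq2 and limma voom also called 0 after adjustment. The study's thresholds called 5.25% of the 12179 genes tested and the adjusted p 0.263%. None of the 10 genes was without overlap between the groups, against 15.1% of all genes. The median log2 fold change was -0.31 against -0.01 over all genes. The values were -0.31 (SE 0.43) for Cyp8b1, -0.31 (SE 0.22) for Cyp27a1 and -0.40 (SE 0.29) for Slc27a5. Cyp7b1 had the lowest unadjusted p of the 10, 0.0891 in edgeR, at a log2 fold change of -0.69 (SE 0.36). With SEs up to 0.93 for Cyp7a1 and 0.80 for Nr0b2, these values do not show that TA and normal livers were alike.

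Cyp7a1 followed no group. In TA livers it was at 307.8, 34.7 and 22.7 CPM, a 13.6-fold span within the group, against 3.37-fold among normal and 6.04-fold among model livers. Its log2 fold change in TA VS Model was 1.07 (SE 1.05), and it became -1.0 without TA liver 1 and 2.20 without model liver 2. In TA VS Normal it was -0.39 (SE 0.93), and without TA liver 1 Cyp7a1 was the 1 gene of the 10 to pass the study's thresholds, at -2.48. Nr0b2 was at 27.0, 40.7 and 138 CPM in TA livers, with a log2 fold change of 1.05 (SE 0.90) in TA VS Model that ranged from 0.03 to 2.43 when libraries were left out. The liver with the highest Cyp7a1 was the one with the lowest Nr0b2 in the normal and TA groups, normal liver 3 and TA liver 1. In the model group Cyp7a1 was lowest in the liver with the highest Nr0b2, model liver 3.

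These opposite extremes could be read in single livers. Normal liver 3 had 294.7 CPM of Cyp7a1 and 18.1 CPM of Nr0b2, whereas normal liver 2 had 87.4 and 176 CPM. TA liver 1 had 307.8 CPM of Cyp7a1 and 27.0 CPM of Nr0b2, whereas TA liver 3 had 22.7 and 138 CPM. Model liver 1, in which both were low at 32.2 and 6.31 CPM, did not follow this, and it was the library with the lowest sum of hepatocyte markers. Normal livers 1 and 2 had near-equal Cyp7a1, at 87.9 and 87.4 CPM, with Nr0b2 at 72.8 and 176 CPM. TA liver 2 had 34.7 CPM of Cyp7a1, near TA liver 3, but 40.7 CPM of Nr0b2. With 3 livers per group such extremes can also coincide by chance, and a link between the 2 genes was not tested. As FPKM, Nr0b2 was 2.20, 5.39 and 0.320 times Nr1h4 in normal livers, 0.689, 0.938 and 1.82 times in model livers and 0.605, 1.03 and 2.59 times in TA livers. Cyp8b1 was 41.6, 28.6 and 7.07 times Cyp7a1 in normal livers, 3.79, 4.0 and 44.2 times in model livers and 12.0, 56.3 and 48.9 times in TA livers, so the balance of these main route enzymes overlapped between all groups.

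The genes with the pattern most like Cyp7a1 were found by the root mean square difference of centred log2 CPM over the 9 livers, among 12077 genes. The nearest were Noct at 0.737 and Per1 at 0.875, followed by Mcm10 at 0.918, Il17rb at 0.934 and RGD1562310 at 1.00. Noct, a circadian phosphatase, was at 5.36, 16 and 44.0 CPM in normal livers, 4.23, 6.52 and 5.59 CPM in model livers and 26.8, 2.38 and 2.61 CPM in TA livers. Per1, a core clock gene, was at 24.7, 39.9 and 50.2 CPM, then 15.7, 30.4 and 23.1 CPM, then 46.5, 11.4 and 14.0 CPM. Both were highest in the same normal, model and TA livers as Cyp7a1. They were picked for their likeness to Cyp7a1 over these same livers, so shared peaks are largely set by that choice. Of the other nearest genes, RGD1562310 was also highest in normal liver 3, at 21.0 CPM. Mcm10 and Il17rb were highest in normal liver 1, at 23.4 and 16.6 CPM. Among the 10 genes themselves the closest pair was Cyp27a1 with Slc27a5 at 0.339, then Cyp27a1 with Abcb11 at 0.358, and the farthest was Cyp7a1 with Nr0b2 at 2.28.

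**Figure D5:**
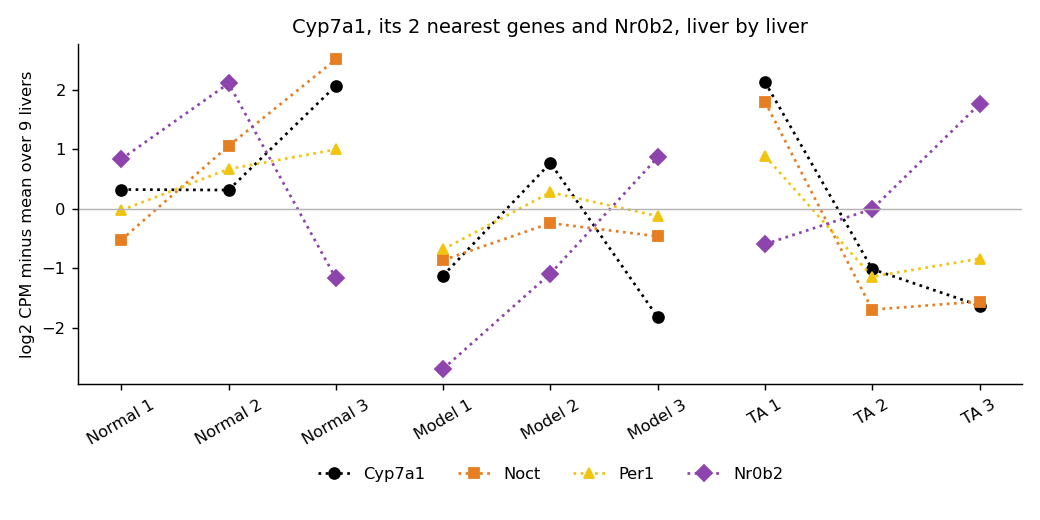
Log2 CPM minus its mean over the 9 livers for Cyp7a1, its 2 nearest genes Noct and Per1, and Nr0b2, by liver; dotted lines join livers of a group only to guide the eye, since replicates have no order. Cyp7a1, Noct and Per1 peak in normal liver 3, model liver 2 and TA liver 1, and Nr0b2 is lowest in normal liver 3 and TA liver 1. Noct and Per1 were picked for their likeness to Cyp7a1 over these livers.

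The other genes of bile acid handling were read from 6 lists of 66 genes, of which 55 were in both tables. In Model VS Normal 15 of 52 tested were lower and 4 higher at the study's thresholds, against 5.55% of all genes lower and 16.6% higher. Their median log2 fold change was -1.0, and it was -0.70 without model liver 1. On the hepatocyte marker scale it was -0.10, against 1.25 over all genes. After adjustment in edgeR 1 was lower and 4 were higher. In TA VS Model 7 of 52 were higher and 3 lower, against 2.11% and 10.2% of all genes, with 0 calls after adjustment. Their median was 0.81, and it was 0.50 without model liver 1. On the hepatocyte marker scale it was 0.22, against -1.01 over all genes. In TA VS Normal 2 of 51 were higher, Ch25h and S1pr2, and 0 lower, against 5.25% of all genes in either direction, with a median of -0.19.

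Among the later steps of synthesis 5 of 15 were lower and 1 higher in model livers, against 5.55% and 16.6% of all genes. The list's median of -0.94 was -0.09 on the hepatocyte marker scale, where the median over all genes was 1.25. Amacr, the racemase needed to shorten the side chain, was at 866, 581 and 530 CPM in normal livers, 61.5, 113 and 307 CPM in model livers and 520, 407 and 384 CPM in TA livers. Model livers were the lowest for Amacr, with log2 fold changes of -2.02 (SE 0.61) in Model VS Normal and 1.44 (SE 0.58) in TA VS Model. Hsd3b7, which modifies the sterol ring in both routes, gave -1.47 (SE 0.57) and 1.26 (SE 0.53). Acox2, Fdx1 and Cyp39a1 were lower at -1.83, -1.35 and -1.22 and did not pass in TA VS Model. Ch25h, a cholesterol hydroxylase that macrophages also express, ran the other way. It was higher in model livers (log2 fold change 2.98, SE 0.62; edgeR adjusted p = 0.0325) and lower in TA than in model livers (-1.30, SE 0.48; edgeR adjusted p = 0.282).

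Of the transporters outside the 10 genes, Abcc3, which exports conjugates back to blood, was at 3.35, 1.68 and 4.52 CPM in normal livers, 15.7, 19.0 and 8.14 CPM in model livers and 8.95, 3.74 and 3.29 CPM in TA livers. Every model liver exceeded every normal liver for Abcc3 (log2 fold change 2.19, SE 0.47; edgeR adjusted p = 0.0359), and it was lower in TA than in model livers at -1.44 (SE 0.49). The canalicular exporter Abcc2 was lower in model livers at -1.61 (SE 0.61), and the uptake carrier Slco2b1 at -1.02 (SE 0.41). In TA VS Model Slco2b1 was higher at 1.01 (SE 0.41) and no canalicular exporter of 7 passed. The detoxifying hydroxylases Cyp3a9 and Cyp3a18 were lower in model livers at -1.87 and -1.99, and Cyp3a9 was higher in TA than in model livers at 1.55 (SE 0.55).

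Among 18 tested regulators 6 were lower and 2 higher in model livers, and 3 were higher and 1 lower in TA than in model livers. The shares of all genes were 5.55% lower and 16.6% higher in the first comparison and 2.11% higher and 10.2% lower in the second. On the hepatocyte marker scale the regulators' median of -0.87 in Model VS Normal became 0.03, where the median over all genes was 1.25. Cebpb, a liver transcription factor, was at 659, 799 and 611 CPM in normal livers, 211, 182 and 282 CPM in model livers and 562, 379 and 504 CPM in TA livers. Its groups did not overlap in either comparison, with log2 fold changes of -1.60 (SE 0.36; edgeR adjusted p = 0.0398) and 1.08 (SE 0.36; edgeR adjusted p = 0.264). Its relative Cebpa gave -1.18 (SE 0.33) and 1.26 (SE 0.36) and kept both calls in 6 of 6 fits leaving out a library. Rxra, the partner of FXR, gave -1.28 (SE 0.47) and 1.45 (SE 0.48). The coreceptor Klb and the sterol receptor Nr1h3 were lower in model livers at -1.50 and -1.18. S1pr2, a receptor that binds conjugated bile acids, was higher in model livers (2.12, SE 0.35; edgeR adjusted p = 0.0178) and was also higher in TA than in normal livers (1.56, SE 0.42; edgeR adjusted p = 0.214). Vdr, the vitamin D receptor, was also called higher in model livers and lower in TA than in model livers, but it rested on 0, 3 and 0 reads in normal, 62, 17 and 16 in model and 9, 8 and 2 in TA libraries.

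Of the 19 calls among these other genes in Model VS Normal, 9 were kept in each of the 6 fits leaving out a library, and they were Abcc3, Acox2, Amacr, Cebpa, Cebpb, Ch25h, Fdx1, S1pr2 and Vdr. Of the 10 calls in TA VS Model only that of Cebpa was kept in each such fit, and Ch25h moved from -1.30 to -0.76 without model liver 1. Of the 2 calls in TA VS Normal that of S1pr2 was kept. Model liver 1, with its low hepatocyte and high fibroblast marker sums, entered both comparisons with the model group, and leaving it out or scaling to hepatocyte markers brought the medians of these genes closer to 0, as given above.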

How the data were processed

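Polyadenylated RNA from 9 rat livers (3 per group) had been sequenced as paired reads; per the methods the authors trimmed reads with Trimmomatic and Cutadapt, aligned with STAR and counted with HTSeq-count. The methods name a human and the labels a mouse genome build, whereas gene symbols were those of rat, so the build could not be settled and no coordinate depends on it. The deposited tables gave, per gene, raw counts, the authors' size-factor-normalized signal (not used), and FPKM, normalized by the authors for gene length and depth. The tables also held the authors' fold changes and p-values, which were not used. Genes numbered 16938 and 16948 in the 2 tables, 16730 in both, and the model counts in both were identical.

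Counts were tested with edgeR 4.0.16 in R 4.3.3 (quasi-likelihood F test, TMM scaling, filterByExpr), fitted on each whole table with only the groups compared, with Benjamini-Hochberg adjustment over all genes tested. TA VS Normal used the genes in both tables. The SE of a log2 fold change was its size divided by the square root of F. Levels were TMM-scaled CPM over the 9 livers, and nearest genes used a prior count of 2. The study's thresholds were an unadjusted p below 0.05 and at least a log2 fold change of 1 in size. All 10 genes were named; other pathway genes were named only when past those thresholds. The values of 1 regulator, counted in its list, are not reported here. Members, lists and markers were chosen with earlier results of these data known. Alternatives were DESeq2 1.42.0, limma 3.58.1 voom with quality weights, other scalings and filters, a joint fit, a replicate block and each library left out. Scripts were tested on simulated data.

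Replicate numbers are shared between groups in the labels, with no statement of what they mark. Deviations of same-numbered livers from their group means correlated at 0.258, 0.426 and 0.501 over genes in TA VS Normal. In the other comparisons at least 1 pair was under 0.1. Whether the numbers mark a pairing is not known. Every main fit, also that of TA VS Normal, was unpaired, and a replicate block was an alternative only. Intervals for counting error are not given, and the SEs reflect the spread between 3 libraries per group. Each library held at least 13156735 counts.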

Additional observations from a re-analysis of the deposited data

How the results depend on the processing

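After adjustment 0 of the 10 genes were called in Model VS Normal by edgeR, against 3 with DESeq2, 5 with limma voom, 2 with all 9 libraries in 1 fit, and 1 each with library totals or hepatocyte marker counts as the library size; leaving out 1 library gave 0 to 4, with 2 without model liver 1 and 4 without model liver 3. At the study's thresholds the 3 calls became 5 with DESeq2 and 7 with limma voom, and 2 to 8 when 1 library was left out, with 8 without model liver 3. In TA VS Model the 0 adjusted calls became 1 with DESeq2. The 2 calls at the study's thresholds became 4 with limma voom and 0 to 9 when 1 library was left out, with 9 without model liver 3, 0 without TA liver 1, and 1 without model liver 1, model liver 2, TA liver 2 or TA liver 3. In TA VS Normal leaving out 1 library gave 0 to 1, the 1 being without TA liver 1. Shares of all genes at the study's thresholds in the alternative fits, the replicate block included, are not given here. A rise in these counts is thus not read as particular to the 10 genes.

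Replicate numbers as a replicate block raised the calls at the study's thresholds to 5 in both comparisons with the model group. With the block 0 were called after adjustment. Same-numbered livers there correlated between -0.057 and 0.218 in their deviations. With so few livers, these values cannot decide whether the numbers mark a shared batch. In TA VS Normal the replicate block changed no call of the 10 genes. It moved the adjusted calls over the whole table from 32 to 203.

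Values that changed sign were Cyp7b1 in Model VS Normal (-0.25 without model liver 1, to 0.76) and Cyp7a1 in TA VS Model (-1.0 without TA liver 1, to 2.20). The others were in TA VS Normal, none of them called. With hepatocyte marker counts as the library size Cyp8b1 was 0.0035, Abcb11 0.086 and Nr0b2 0.012. Leaving out 1 library gave Nr1h4 from -0.0059 to 0.45, Nr0b2 from -1.43 to 0.56, Baat from -0.71 to 0.067, Cyp8b1 from -0.87 to 0.015 and Cyp7a1 from -2.48 to 0.44. Nr1h4 was -0.0047 without normal liver 1 and -0.0059 without normal liver 2. Nr0b2 was 0.56 without normal liver 2, Baat 0.067 without normal liver 3 and Cyp8b1 0.015 without TA liver 3. Cyp7a1 was 0.44 without normal liver 3, 0.040 without TA liver 2 and 0.096 without TA liver 3. The causes were not tested.

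Library totals moved the median log2 fold change of all genes to 0.65 in Model VS Normal, -0.48 in TA VS Model and 0.18 in TA VS Normal; Cyp27a1 in TA VS Model was then 0.97 and lost its call. Over the whole table, the 1002 adjusted calls of Model VS Normal became 2654 with DESeq2, 3433 with limma voom, 1980 with library totals, 2746 with hepatocyte marker counts, 1757 in the joint fit and 0 to 2537 when 1 library was left out. The 0 of TA VS Model became 541 with DESeq2, 169 with limma voom, 1192 with hepatocyte marker counts and 1 without model liver 3. The 32 of TA VS Normal became 360 with DESeq2, 127 with limma voom, 148 with hepatocyte marker counts, 76 with no filter and 14 in the joint fit.

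Over the log2 fold changes of the 10 genes, 136, 133 and 148 alternatives in Model VS Normal, TA VS Model and TA VS Normal kept the direction and the side of the threshold. In the same order, 6, 9 and 0 lost a call, 17, 17 and 1 gained a call, and 1, 1 and 11 changed direction. With 3 libraries per group, and the first model liver far from the others, the size of each change is loosely set.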
